A study of Ipomoea batatas with 12 samples.

Results

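The genes described here are those whose identifier begins with itf00 in a count table of sweet potato leaf RNA. The table lists 32301 gene identifiers, of which 1677 carry this prefix. Members were the itf00 identifiers with a count of at least 10 in at least 4 of the 12 libraries, which left 831 genes. By the same filter 22490 of the 30624 identifiers of the prefixes itf01 to itf15 were kept, 23321 genes in all. The libraries were made from the third leaf of Ipomoea batatas, cultivar Tainong 57, grown from scions and given 1 of 3 treatments for 1 h. These were water, the peptide IbHypSysIV and the peptide IbPep1, and 4 libraries represent each. All 3 groups share cultivar, leaf position and treatment time, and no transgene or mutant is named in the labels. The 4 IbPep1 libraries are grouped by their source name, although a separate treatment field counts from IbPep1 to IbPep4 across them and their titles begin with an unexplained code. Whether replicates are different plants is not given in the labels, so the spread behind each p-value may be technical in part. In whole leaves, a change in the number of cells of a type and a change in RNA per cell cannot be told apart.

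Identifiers in plant genome annotations often carry the number of a chromosome after a species code, and a number of zero is commonly used for sequence that has not been placed on any chromosome. Neither the table nor the labels say what itf00 stands for here, so the prefix is used only as a label. Unplaced sequence is typically rich in repeats, gene fragments and near-identical copies, and copies share reads. The peptides belong by name to the hydroxyproline-rich systemins and to the plant elicitor peptides, small signals that leaf cells perceive through membrane receptors and that are known for switching on defence genes within hours. Neither gene names nor lengths stand beside the identifiers, and none of them (0 of 32301) was found in the reference gene table. No role can therefore be given for any member, the leaf label could not be checked against marker genes, and at most 2 identifiers each way are named per comparison.

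A library held between 16607188 and 25073251 counts. The floor of 3 counts, below which a level is not read, then equals 0.120 to 0.181 CPM, the unit of counts relative to a library's total. The libraries that lay apart from the rest of their group were water replicate 3, IbHypSysIV replicate 4 and IbPep1 replicate 3. Over the 831 members, water replicate 3 correlated at 0.920 to 0.943 with the rest of its group, whose own members correlated at 0.963 to 0.972, and at 0.926 to 0.944 with the IbPep1 group. IbHypSysIV replicate 4 lay apart over the 22490 other genes, at 0.952 to 0.963 beside 0.966 to 0.979 within the remainder of that group, and so did IbPep1 replicate 3, at 0.956 to 0.965 beside 0.971 to 0.983. Over the members alone the ranges of these last libraries overlapped those of their groups. These correlations are across genes, which are not independent replicates.

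The itf00 identifiers were detected less often than those of any other prefix. Of the 1677, 49.6% passed the filter, against 70.0% in itf07, the lowest of the other 15 prefixes, and 75.1% in itf03, the highest. No count in any library was found for 345 itf00 identifiers, or 20.6%, against 7.17% to 11.03% in the other prefixes. A further 501, or 29.9%, had some counts but missed the filter, against 16.3% to 20.3% elsewhere. Among the genes that passed, 74.2% of the members reached 10 counts in all 12 libraries, against 85.6% to 88.2% in the other prefixes. These are descriptions of 1 annotation in 1 set of libraries, and no test was made across genes, which are not replicates.

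**Figure D1:**
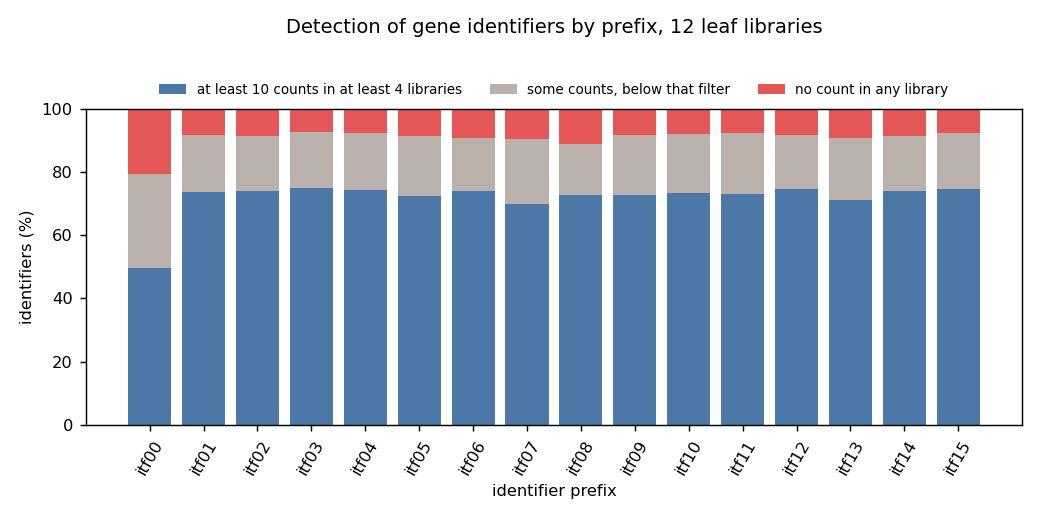
Stacked bars give, for each identifier prefix, the percentage of identifiers with at least 10 counts in at least 4 of the 12 libraries, with some counts below that filter, and with no count. The itf00 bar reaches 49.6% for the first class, and those of itf01 to itf15 reach 70.0% to 75.1%.

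At the edge of the filter, 21 members had at least 10 counts in exactly 4 libraries, with a median of 102 counts summed over all 12, and 36 itf00 identifiers just missed it with 3 libraries and a median sum of 88. The highest single count was 90 in the first set and 57 in the second. In 4 members the libraries that reached 10 counts were exactly the 4 of IbPep1, and in 0 members exactly the 4 of water or of IbHypSysIV. In 57 members fewer than 4 libraries outside IbPep1 reached 10 counts, so these passed only with the help of IbPep1 libraries.

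Members also carried fewer reads per gene. The median over members of the mean CPM was 3.46, against 12.1 to 15.5 in the other 15 prefixes, and the lower quartile was 1.13 against 2.74 to 3.90. A mean under 1 CPM was found for 178 members (21.4%, against 9.16% to 12.2%) and a mean of at least 100 CPM for 22 (2.65%, against 7.59% to 10.1%). On the log2 CPM scale the difference between the median member and the median gene of itf01 to itf15 was -1.96. Gene lengths are not in the table, so these are read counts per gene and not levels per length, and the part of gene length in the difference was not tested.

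**Figure D2:**
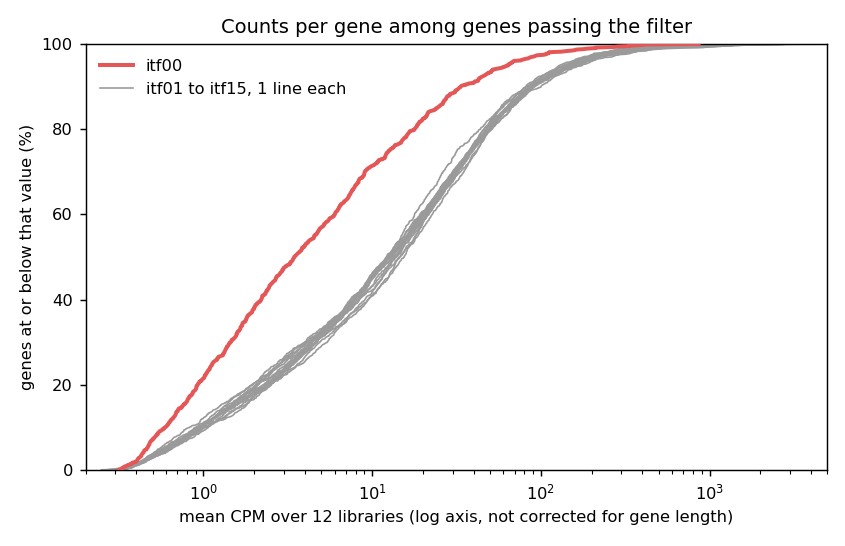
Cumulative percentage of genes passing the filter against their mean CPM over 12 libraries on a log axis, with 1 line for each prefix. The itf00 line runs to the left of the other 15 lines, with a median of 3.46 CPM against 12.1 to 15.5 CPM.

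All itf00 identifiers together took 1.33% of the counts on average over the 12 libraries, while they made up 5.19% of the identifiers. The prefix itf08, with fewer identifiers (1369), took 3.56%. The 10 most abundant itf00 identifiers held 26.3% of the counts of the prefix, inside the range of 14.9% to 43.8% in the other prefixes. The top 10% of identifiers held 79.6%, above the 63.6% to 74.9% elsewhere. The most abundant member averaged 862 CPM and held rank 102 among all identifiers, and 11 of the 1000 most abundant genes were itf00 genes.

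The share of reads from itf00 identifiers was nearly the same in the 3 treatments. In water it was 1.33%, 1.35%, 1.27% and 1.33% in replicates 1 to 4, with IbHypSysIV 1.28%, 1.38%, 1.32% and 1.29%, and with IbPep1 1.36%, 1.38%, 1.30% and 1.33%. The ranges of the 3 groups overlapped, and the means were 1.32% ± 0.0355, 1.32% ± 0.0434 and 1.34% ± 0.0350 (SD, n = 4). The 95% Wilson interval of each library's share extended at most 0.00542 percentage points either way and covers counting error only. As a sum over the members, the share was given no test.

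Detection within a library was slightly higher with IbPep1 than in water. Of the 1677 itf00 identifiers, 44.7% to 46.9% had at least 10 counts in the water libraries, 43.9% to 46.8% in the IbHypSysIV libraries and 46.3% to 50.03% in the IbPep1 libraries. With every library thinned to 16607188 counts, the percentages were 42.3%, 42.6%, 43.7% and 42.4% in water, 44.1%, 41.4%, 43.1% and 45.0% with IbHypSysIV, and 45.2%, 45.6%, 46.3% and 43.8% with IbPep1. The 4 thinned IbPep1 values all lay above the 4 water values, the closest being 43.8% in IbPep1 replicate 4 and 43.7% in water replicate 3. The thinning was a single random draw, and before it the water and IbPep1 ranges overlapped, so this narrow gap may not hold in another draw. Identifiers of itf01 to itf15 went from 68.4% to 69.2% in water to 69.1% to 70.3% with IbPep1 after thinning, and these ranges overlapped. The difference in median log2 CPM between members and the other prefixes was -2.04 to -1.90 in the water libraries and -1.87 to -1.66 in the IbPep1 libraries. These ranges lie close together, and 57 of the members passed the filter only with the help of IbPep1 libraries, so the filter itself favours genes that are high there and nothing is read from this difference. With IbHypSysIV the differences were -2.04 to -1.87, which overlapped the water range and met the edge of the IbPep1 range. None of these differences between treatments was tested, since each is a summary over the members.

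**Figure D3:**
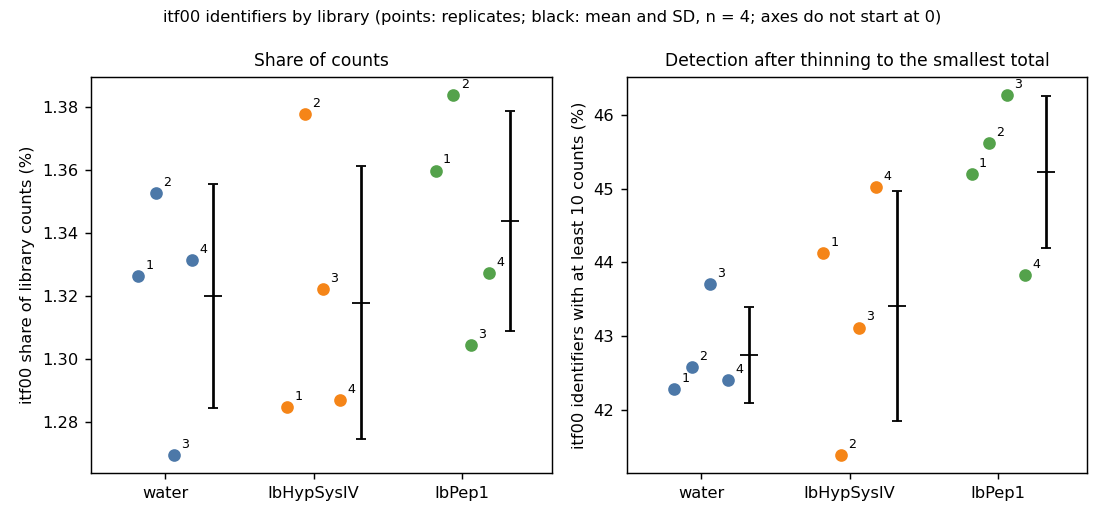
Points give each library's share of counts from itf00 identifiers (left) and its percentage of itf00 identifiers with at least 10 counts after thinning to 16607188 counts (right), labelled by replicate, with the mean and SD (n = 4) in black. The groups overlap on the left, and on the right the IbPep1 points lie between 43.8% and 46.3%, above the water points at 42.3% to 43.7%. The thinning is a single random draw.

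The identifier numbers of itf00 were widely spaced. They ran up to 79510 in steps of 10, and 21.1% of the possible numbers were used, against 71.5% to 81.4% in the other prefixes, whose highest numbers were 19120 to 36410. The next number was also present for 35.9% of itf00 identifiers, against 79.7% to 86.8% elsewhere. The use of numbers thinned out along the series, from 34.6% of those below 10000 to 3.80% of those from 70000 on. Identifiers numbered below 40000 held 22.3%, 27.6%, 18.9% and 20.03% of the itf00 counts in successive blocks of 10000, and the last 3 blocks held 1.96%, 1.02% and 0.930%. The share passing the filter was 48.0% to 56.3% in each of the first 5 blocks and 32.1% to 44.4% in the last 3, the smallest of which holds 38 identifiers.

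Members varied more between replicates than other genes. The median biological coefficient of variation of a member was 27.0%, against 21.9% to 23.6% in the other prefixes. Low counts vary more, so the values were also set side by side at like CPM. Below 3 CPM the members' medians were 34.9% (under 1 CPM) and 29.5% (1 to 3 CPM), against 37.6% and 30.7% in the other prefixes. At 3 to 10 CPM the values were close, with 24.3% against 24.1%. From 10 CPM on the members' medians were the higher ones, with 22.0% against 19.4% at 10 to 30 CPM, 22.7% against 18.5% at 30 to 100 CPM and 22.9% against 20.7% at 100 CPM or more, the last over only 22 members.

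The comparison of IbHypSysIV with water asked which leaf genes respond to that peptide within 1 h. Among the members 10 were called at an adjusted p under 0.05, 7 higher and 3 lower (quasi-likelihood fit in edgeR, adjusted over all 23321 genes). This is 1.20% of the members, beside a background of 2.24% of all genes tested, and 1.37% to 3.46% in each of the other 15 prefixes. The share higher was 0.842%, beside a background of 1.18%, and the share lower 0.361%, beside a background of 1.06%. At an unadjusted p under 0.05, 17.3% of the members passed, against 17.5% to 22.8% elsewhere. The 7 genes that rose had a median log2 fold change of 0.89 (0.97 over all 275 genes that rose), and 2 of them changed at least 4-fold (0.241% of the members, beside a background of 0.129%). The 3 that fell had a median of -1.07 (-0.99 over all 248 that fell). The members' groups did not overlap for 88 genes, or 10.6%, beside a background of 11.7%. Of the genes of itf01 to itf15 2.28% were called, or 1.82% when their CPM ranges are weighted to the members' mix.

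The rule for naming genes, which asks for a mean of 1 CPM or more and no overlap between groups, put itf00g25340 first among the rises, although the largest fitted value among the 7 was 4.67. It stood at 9.79, 11.8, 5.64 and 10.96 CPM in water, at 65.4, 65.4, 134 and 154 CPM with IbHypSysIV, and at 139, 116, 55.4 and 157 CPM with IbPep1. Every library of either peptide lay above every water library, and those of the peptides overlapped each other. With IbHypSysIV the fitted log2 fold change was 3.46, with an SE of 0.40 and an adjusted p = 0.00235 (edgeR, Benjamini-Hochberg over all genes, as for every adjusted p here). For IbPep1 against the same water libraries it was 3.62, with an SE of 0.40 and an adjusted p = 0.00256 in edgeR. The peptides differed from each other by 0.16 log2 units, with an SE of 0.36 and an adjusted p = 0.779 in edgeR, which does not show that they act alike on this gene.

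The second gene named by this rule was itf00g37420, at 22.9, 20.8, 19.0 and 28.3 CPM in water and 30.9, 51.0, 43.0 and 44.2 CPM with IbHypSysIV, a log2 fold change of 0.89 with an SE of 0.19 and an adjusted p = 0.0372 in edgeR. With IbPep1 it stood at 20.2, 19.1, 30.5 and 20.9 CPM, within or just above the water range. Among the genes that fell, itf00g30960 went from 32.5, 39.6, 63.3 and 44.0 CPM to 25.3, 13.4, 18.7 and 20.9 CPM, a log2 fold change of -1.20 with an SE of 0.23 and an adjusted p = 0.0216 in edgeR. Its IbPep1 values of 46.5, 67.2, 56.5 and 57.0 CPM lay in the upper part of the water range or above it. The gene itf00g40760 went from 20.1, 17.2, 14.95 and 14.3 CPM to 7.18, 8.20, 8.42 and 9.49 CPM, a log2 fold change of -1.001 with an SE of 0.19 and an adjusted p = 0.0216 in edgeR. With IbPep1 it stood at 7.88, 9.91, 7.10 and 5.34 CPM, a log2 fold change of -1.14 with an SE of 0.19 and an adjusted p = 0.00833 in edgeR. It was thus lower than water in all 8 peptide libraries.

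The number of called members depended on single libraries. Leaving out water replicate 1, 2, 3 or 4 gave 2, 1, 21 and 2 in place of 10. Those were 0.242%, 0.121%, 2.55% and 0.242% of the members tested, beside 0.224%, 0.486%, 4.203% and 0.5296% of all genes. Leaving out IbHypSysIV replicate 3 gave 1 (0.121%, with 0.147% of all genes called) and replicate 4 gave 4 (0.485%, with 1.14%). Leaving out IbPep1 replicate 1, 2 or 4, which enter through the shared estimate of the spread, gave 4, 6 and 6. Those were 0.485%, 0.729% and 0.729% of the members, beside 1.31%, 1.48% and 1.72% of all genes. Without the 3 libraries that stood apart 28 of 790 members were called (3.54%, with 5.02% of all genes called). DESeq2 called 53 (6.38%, with 7.87% of all genes called). The call of itf00g25340 was kept with every single library left out, and that of itf00g37420 was lost without water replicates 1, 2 or 4, without IbHypSysIV replicates 2, 3 or 4, or without IbPep1 replicate 1. The call of itf00g30960 was lost without water replicate 2 or 4 or IbHypSysIV replicate 3, and that of itf00g40760 without water replicate 1 or 2 or IbHypSysIV replicate 3.

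For IbPep1 against water the question was the same. Among the members 69 were called higher and 40 lower, together 13.1% beside a background of 11.4% of all genes tested. Of the genes of itf01 to itf15 11.4% were called, or 9.77% when weighted to the members' mix of CPM. The members' share of genes higher was 8.30%, beside a background of 5.45% and 4.33% to 6.83% in the other prefixes. Their share of genes lower was 4.81%, beside a background of 5.99% and 4.80% to 6.59% elsewhere. Of the 69 members called higher, 15 had fewer than 4 libraries with 10 counts outside IbPep1, against 0 of the 40 called lower. The filter itself favours such rises, so the share higher is a description and was given no test. The groups did not overlap for 160 members (19.3%, beside a background of 19.6%). Together the 69 genes made up 0.0510% ± 0.0103 of TMM-scaled counts in water libraries and 0.109% ± 0.00605 in IbPep1 libraries, and the 40 genes went from 0.1002% ± 0.00898 to 0.0571% ± 0.000629 (SD, n = 4). These sums follow from the choice of called genes and are no separate support.

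**Figure D4:**
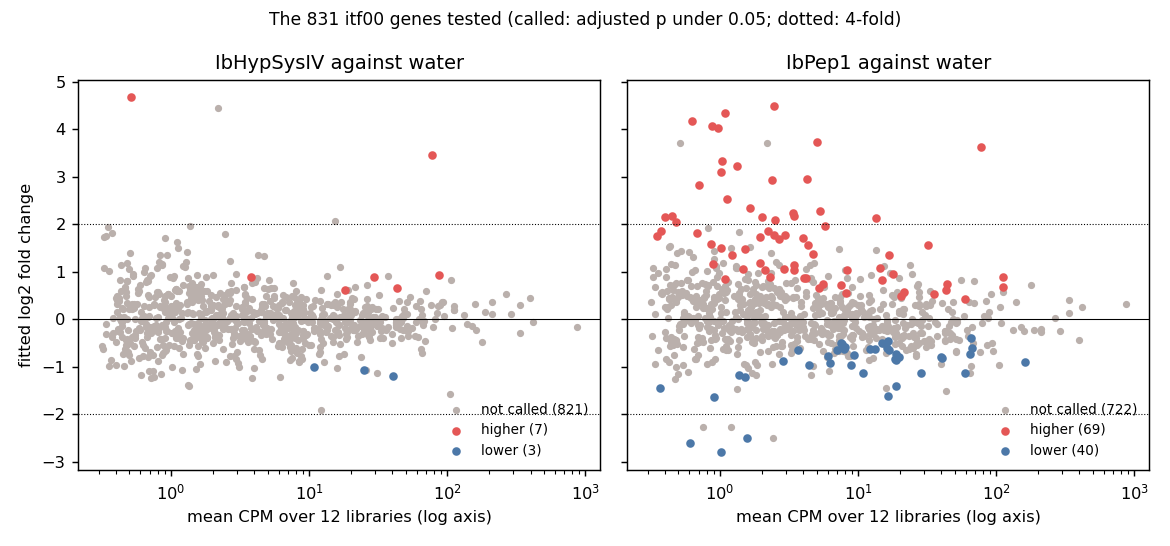
Each point is 1 of the 831 members, with its mean CPM over 12 libraries on a log axis and its fitted log2 fold change for IbHypSysIV (left) and IbPep1 (right) against the same water libraries; dotted lines mark 4-fold changes. On the left 10 members are called, and on the right 69 are higher, many of them under 10 CPM and past the upper dotted line, and 40 are lower.

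The median rise of the members called higher with IbPep1 was above that of every other prefix, which is a description with no test. The median log2 fold change of the 69 genes was 1.58, against 0.93 over all 1272 genes that rose and 0.79 to 1.16 in each of the other prefixes. Their median CPM was 2.93, against 3.46 over all members and 15.4 over all genes that rose. At least 2-fold rises were found in 51 members (6.14%, beside a background of 2.45%), and at least 4-fold rises in 24 (2.89%, beside a background of 0.515%). In the other prefixes 1 to 12 genes, or 0.0802% to 0.706% of those tested, rose at least 4-fold, so that itf00 held 24 of the 120 such genes while it made up 3.56% of the genes tested. The genes that fell had a median of -0.80, within the range of the other prefixes, and 3 fell at least 4-fold (0.361%, beside a background of 0.429%).

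The difference was also present at like counts below 10 CPM. Under 1 CPM 3.93% of the members rose at least 4-fold, against 1.19% of the other genes, and at 1 to 3 CPM 4.65% did, against 0.913%. At 3 to 10 CPM the shares were 2.50% and 0.424%. At 10 to 30 CPM 1 of 142 members rose so (0.704%, against 0.267%), and at 30 to 100 CPM 1 of 74 (1.35%, against 0.0799%). At 100 CPM or more 0 of 22 did, against 0.103%. Single members in these ranges are too few to compare the shares. Of the 24 genes, 22 had a mean under 10 CPM and 12 passed the filter only with IbPep1 libraries. In the other prefixes this was so for 34 of 96. A gene that passes only through the group where it is high had to differ, so these counts are a description and were given no test.

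In the 24 genes the medians were 0.401, 0.333, 0.543 and 0.297 CPM in the water libraries, 0.848, 0.397, 0.482 and 0.989 CPM with IbHypSysIV, and 2.39, 5.34, 2.84 and 2.57 CPM with IbPep1. IbPep1 replicate 2 was the highest of its group in 17 of the 24 genes, and water replicate 3 the highest of its group in 15. Of the 24, 23 had no overlap between IbPep1 and water, beside 19.6% of all genes tested, which follows from their choice in this same comparison. Against the same water libraries, IbHypSysIV gave the 24 genes log2 fold changes of -0.54 to 3.46 with a median of 0.50, and 1 of them, itf00g25340, was called. In the direct comparison of the peptides, which uses the same IbPep1 libraries, all 24 were higher with IbPep1 and 18 were called. These genes were chosen for being high in IbPep1, so that count partly follows from the choice.

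**Figure D5:**
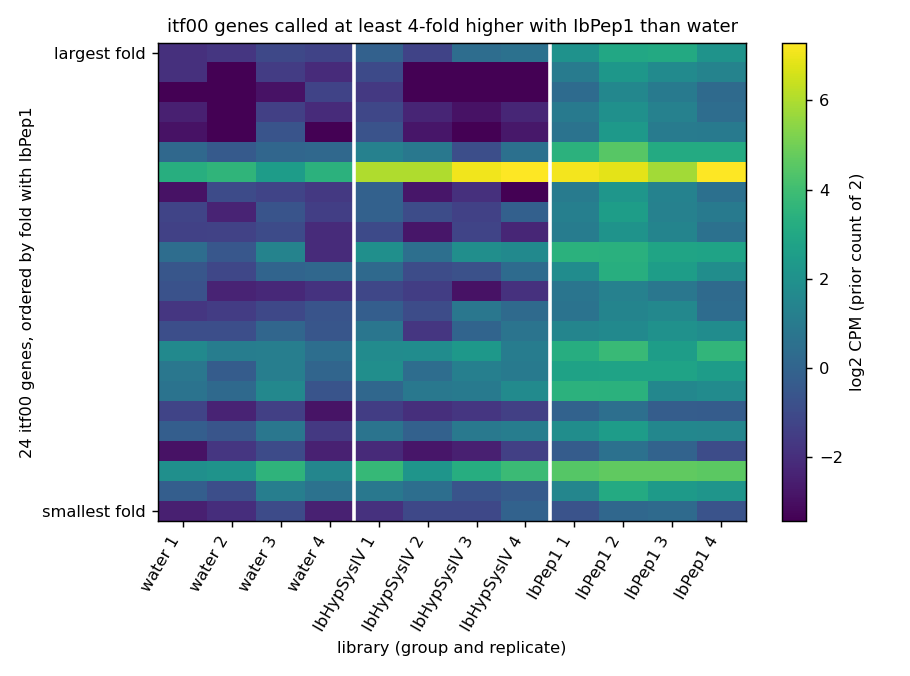
Rows are the 24 members called at least 4-fold higher with IbPep1 than with water, ordered by fold, columns are the 12 libraries, and colour is log2 CPM with a prior count of 2. Median levels are 0.297 to 0.543 CPM in the water libraries and 2.39 to 5.34 CPM in the IbPep1 libraries, and the bright row in both peptide groups is itf00g25340.

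The first gene named by the rule among the rises with IbPep1 was itf00g01800, which went from 0.169, 0.205, 0.376 and 0.320 CPM in water to 3.97, 7.92, 8.48 and 4.09 CPM. IbHypSysIV replicates 1, 3 and 4 lay between, at 0.848, 1.21 and 1.40 CPM, while replicate 2, at 0.318 CPM, lay inside the water range. The log2 fold change was 4.48 with IbPep1, with an SE of 0.47 and an adjusted p = 0.00256 in edgeR. With IbHypSysIV it was 1.79, with an SE of 0.48, and did not pass the threshold (edgeR, adjusted p = 0.0715). The next was itf00g64880, with 4, 0, 6 and 3 counts in the water libraries and 40, 90, 81 and 51 with IbPep1, a fitted log2 fold change of 4.35 with an SE of 0.80 and an adjusted p = 0.0103 in edgeR. Its water mean of 0.139 CPM lies at the 3-count floor, and the fitted value therefore depends on the prior count. The call of itf00g01800 was kept in all 22 alternatives, and that of itf00g64880 in the 16 in which it was tested. The gene itf00g64880 was not tested in any fit that left out an IbPep1 library. Nor was it tested without the libraries that stood apart or with the filter of 50 counts. Whether its call depends on a single IbPep1 library was therefore not tested.

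Among the genes that fell, itf00g35650 went from 2.74, 3.94, 0.794 and 2.74 CPM in water to 0.532, 0.511, 0.355 and 0.385 CPM, a log2 fold change of -2.51 with an SE of 0.42 and an adjusted p = 0.00867 in edgeR. Its IbHypSysIV values of 1.96, 1.96, 1.63 and 1.28 CPM lay inside the water range. In this gene water replicate 3 was the lowest water library, next to the IbPep1 range. The gene itf00g32100 went from 28.3, 26.3, 18.9 and 30.7 CPM to 7.84, 10.4, 12.3 and 8.75 CPM, a log2 fold change of -1.41 with an SE of 0.34 and an adjusted p = 0.0253 in edgeR. This gene was no longer called when water replicate 1, 2 or 4 or IbPep1 replicate 1, 2 or 4 was left out.

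Leaving out water replicate 1, 2, 3 or 4 gave 35, 23, 225 and 26 called members for IbPep1. Those were 4.23%, 2.78%, 27.3% and 3.14% of the members tested, beside 3.63%, 2.29%, 25.8% and 2.33% of all genes. Leaving out IbHypSysIV replicate 3 gave 71 (8.62%, with 7.73% of all genes called), and leaving out IbPep1 replicate 1, 2 or 3 gave 37, 24 and 54. The last 3 counts were 4.49%, 2.92% and 6.64% of the members, beside 3.80%, 2.95% and 6.49% of all genes. Without the 3 libraries that stood apart 216 of 790 members were called (27.3%, with 28.5% of all genes called). Of members at least 4-fold higher there were 14 with water replicate 2 left out, 15 with water replicate 4 left out and 13 with IbPep1 replicate 2 left out, in place of 24, and itf00 then held 26.9%, 25.4% and 27.7% of all genes called at least 4-fold higher. Without water replicate 3 it was 35 of 310 such genes (11.3%), and without the 3 libraries 30 of 274 (10.9%). The share of itf00 among these genes was above 3.56% in each of these 5 fits. The fits use the same filter, which 12 of the 24 genes passed only with IbPep1 libraries, so they are no separate support.

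Some members that rose with IbPep1 had near numbers. Their share in runs lay inside the range of the other prefixes, while the share of adjacent pairs called alike lay above it. Of the 69 genes, 22 (31.9%) fell into 6 runs of at least 3 genes whose successive numbers were at most 100 apart, a window chosen after the values were seen. In the other prefixes 16.4% to 43.1% of the genes that rose did so (27.8% of them together), with 3 to 10 runs each. Their numbers are used more densely, so the window holds more of their identifiers and the shares are not like for like. The 40 genes that fell formed 0 runs, while those of the other prefixes formed 3 to 12 each, which held 13.04% to 51.3% of them. Pairs of members with adjacent numbers were also counted where at least 1 was called. For IbPep1 against water both were called in the same direction in 8 of 53 (15.1%), against 3.02% to 9.19% in the other prefixes. For the direct comparison it was 10 of 55 (18.2%, against 5.76% to 10.1%), and for IbHypSysIV 0 of 2. These shares were not tested. The longest run held 6 called genes of 10 members between numbers 20130 and 20300, with log2 fold changes of 1.499 to 4.07. Summed over these 6 genes, the levels were 2.07, 1.49, 3.42 and 2.51 CPM in water, 3.66, 1.38, 1.51 and 2.15 CPM with IbHypSysIV, and 11.5, 25.0, 15.4 and 9.86 CPM with IbPep1. IbPep1 replicate 2 was the highest library in all 6.

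A run of 3 genes between numbers 29860 and 29880 had all its members called, with log2 fold changes of 1.87 to 3.23 and IbPep1 replicate 2 again the highest in all 3. Its summed levels were 1.60 to 2.005 CPM in water, 1.38 to 2.45 CPM with IbHypSysIV and 7.88, 17.9, 8.21 and 6.25 CPM with IbPep1. A run of 4 called genes of 6 members between numbers 8080 and 8140 differed from these. It stood at 4.94, 3.33, 7.85 and 3.06 CPM in water, at 11.02, 5.13, 9.51 and 9.02 CPM with IbHypSysIV and at 25.6, 25.5, 20.6 and 19.0 CPM with IbPep1. Here water replicate 3 was the highest water library, and 3 of the 4 IbHypSysIV libraries lay above the whole water range. The sums come from genes chosen for their rise and were given no test. Nothing in the table says whether near numbers are near each other in the genome or share sequence.

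The direct comparison of IbPep1 with IbHypSysIV called 120 members, 69 higher and 51 lower with IbPep1, which is 14.4% beside a background of 15.8%. The share higher was 8.30%, beside a background of 6.65% and 4.90% to 7.44% in the other prefixes, and the share lower was 6.14%, beside a background of 9.1% and 7.58% to 10.6% elsewhere. At least 4-fold higher with IbPep1 were 17 members (2.05%, beside a background of 0.506%). Here too the filter favours genes that are high with IbPep1, so both shares higher are a description and were given no test. The groups did not overlap for 181 members (21.8%, beside a background of 23.8%).

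The gene itf00g64880 again came first among those higher with IbPep1. Against its IbPep1 counts of 40, 90, 81 and 51, IbHypSysIV replicates 1 to 4 had 9, 0, 0 and 0, a fitted log2 difference of 4.75 with an SE of 0.84 and an adjusted p = 0.00478 in edgeR. The gene itf00g65630 followed, with 31, 99, 50 and 40 counts against 12, 1, 0 and 1, a log2 fold change of 3.91 with an SE of 0.98 and an adjusted p = 0.0200 in edgeR. With IbHypSysIV the mean level of itf00g64880 lay under the 3-count floor and that of itf00g65630 at it, so both differences depend on the prior count of the fit. They also depend on 1 library, since without IbHypSysIV replicate 1 the fitted values were 9.03 and 6.04. In water, itf00g65630 had 1, 0, 13 and 0 counts. Both genes passed the filter only with the help of IbPep1 libraries. Of the genes lower with IbPep1, itf00g35650 is described above, with a log2 difference of -1.94 between the peptides, an SE of 0.42 and an adjusted p = 0.0122 in edgeR. The gene itf00g53770 stood at 42.7, 35.7, 43.4 and 39.7 CPM with IbHypSysIV and 12.2, 22.6, 14.7 and 7.70 CPM with IbPep1, a log2 fold change of -1.50 with an SE of 0.30 and an adjusted p = 0.00849 in edgeR. Its water values of 27.7, 30.7, 13.5 and 26.1 CPM lay below all IbHypSysIV values, and water replicate 3 lay within the IbPep1 range.

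Leaving out IbHypSysIV replicate 2 or 3 gave 61 and 64 members in place of 120, and leaving out IbPep1 replicate 1 or 2 gave 62 and 50. Those were 7.38%, 7.77%, 7.52% and 6.08% of the members tested, beside 9.24%, 8.14%, 9.05% and 7.09% of all genes. The call of itf00g65630 was lost without IbHypSysIV replicate 2 or 3 or IbPep1 replicate 2.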

How the data were processed

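The authors deposited 1 table of whole-number counts of reads per gene, with a column for each library. The submitters' processing notes name HISAT2 2.0.5, HTSeq 0.6.1 and DESeq2 1.22.2. What is not given in the sources used here is the genome build, the annotation, the strand setting and the treatment of reads that align to several places, so members with near-identical copies or overlapping genes are uncertain. The labels' protocols name both a NEBNext Ultra and a SMARTER kit, without saying which library was made with which. Members, lists and tests were chosen with earlier results of these data known.

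Analyses ran in R 4.3.3. Genes with at least 10 counts in at least 4 of 12 libraries were kept (99.9% of all counts), scaled by TMM factors of 0.914 to 1.10 and fitted in edgeR 4.0.16 with group as the only term. Each comparison used the quasi-likelihood test with Benjamini-Hochberg adjustment over 23321 genes and a threshold of 0.05. Each SE is the log2 fold change over the root of its F statistic, and fitted fold changes use a prior count of 0.125. CPM of genes are TMM-scaled, and the floor is not. The background is the share of all genes tested that was called. Shares by CPM range use the mean over 12 libraries. Named genes are, in each direction, the 2 with the largest fold change among called members whose mean reached 1 CPM in the 8 libraries used and whose groups did not overlap. Replicates are numbered in accession order. No pair of replicates agreed within sampling noise over the members (the smallest chi-square per degree of freedom was 7.97). The procedure was also run on simulated counts with known changes. No simulated library stood apart from its group as the real ones do, so that run gives no support to the calls here. Alternatives included DESeq2 1.42.0, limma-voom (limma 3.58.1), other scalings and filters, and leaving out libraries. Counts of at least 4-fold rises, runs and adjacent pairs of numbers, and CPM ranges were added after seeing the data.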

Additional observations from a re-analysis of the deposited data

Results flagged for a closer look

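In 39 groups of 4 values, 6 held a library far from the other 3, by a limit that chance passes in about 1 in 20 groups. Of the 39, 30 are levels of the 10 named genes, which were picked by their changes in the same 12 libraries, so the 6 are not shown to exceed chance. For itf00g65630 these were water replicate 3 at 0.543 CPM (the others at 0 to 0.0422), IbHypSysIV replicate 1 at 0.535 CPM (0 to 0.0582) and IbPep1 replicate 2 at 5.06 CPM (1.4996 to 1.97). For itf00g64880 it was IbHypSysIV replicate 1, at 0.402 CPM with the others at 0. For itf00g32100 it was IbHypSysIV replicate 4, at 39.3 CPM against 11.2 to 15.9. For itf00g37420 it was IbPep1 replicate 3, at 30.5 CPM against 19.1 to 20.9. The share of counts, the detection and the median of the itf00 genes held no such library in any group.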

How the results depend on the processing

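Of the 831 members 178 average under 1 CPM, where counting error is largest, and the part of depth and of group size in the counts of calls was not tested. Called members for IbHypSysIV against water (10) numbered 53 with DESeq2, 3 with only the 2 groups fitted, 28 without the 3 libraries that stand apart, and 1 to 21 with 1 library left out. Those were 6.38%, 0.361%, 3.54% and 0.121% to 2.55% of the members, beside 7.87%, 0.755%, 5.02% and 0.147% to 4.203% of all genes. For IbPep1 against water (69 higher, 40 lower) the called members numbered 169 with DESeq2, 216 without the 3 libraries and 23 to 225 with 1 library left out. Those were 20.3%, 27.3% and 2.78% to 27.3% of the members, beside 19.8%, 28.5% and 2.29% to 25.8% of all genes. For the direct comparison (120) the called members numbered 170 with DESeq2, 175 without the 3 libraries and 50 to 157 with 1 library left out. Those were 20.5%, 22.2% and 6.08% to 19.1% of the members, beside 22.7%, 24.1% and 7.09% to 21.8% of all genes. At least 4-fold rises with IbPep1 (24) numbered 12 with a filter of 50 counts and 13 to 35 with 1 library left out. Those were 2.31% and 1.58% to 4.25% of the members, beside 0.318% and 0.202% to 1.33% of all genes. Other scalings, limma-voom and filterByExpr kept each count within 1.5 times. A fit with the title number as a replicate block called 0 members for IbHypSysIV (edgeR, 73 at an unadjusted p under 0.05), 146 for IbPep1 (42 of them at least 4-fold higher) and 15 for the direct comparison. Those were 0%, 17.6% and 1.81% of the members, beside 0%, 14.3% and 2.57% of all genes. The 42 were 5.05% of the members, beside 1.54% of all genes. Water replicate 3, IbHypSysIV replicates 3 and 4 and IbPep1 replicate 4 share their title number with no other library, so they do not inform the comparisons of this fit. It has 3 residual degrees of freedom, against 9 in the main fit, and its counts of calls are not like for like with the main ones. No pairing by number was seen. Over 7 same-numbered pairs the deviations from the group means correlated at -0.0712 to 0.138, and 0 of 8 libraries correlated best with their own number. So few pairs cannot exclude a weak pairing, which the libraries that stand apart could hide.

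The itf00 share of counts was 1.10%, 1.10% and 1.09% in water, IbHypSysIV and IbPep1 without the 5 most abundant itf00 identifiers, and 1.42%, 1.41% and 1.45% with the 10 most abundant genes of all taken out of the total. The share of itf00 identifiers passing was 79.4% at 1 count in 1 library (91.6% in the other prefixes together), 31.0% at 50 counts in 4 (59.9%) and 47.1% after thinning (71.6%). The difference of median log2 CPM was -1.21 with the filter of 50 counts and -2.93 over all identifiers with a count. The cause of these changes was not tested, beyond the filter's own effect.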
